A study of Mus musculus with 12 samples.

Results

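Albumin (Alb), alpha-fetoprotein (Afp), afamin (Afm) and the vitamin D binding protein (Gc) form one gene family on mouse chromosome 5, and transthyretin (Ttr) is an unrelated plasma carrier encoded on chromosome 18. These 5 genes were taken by symbol from 24197 RefSeq genes measured in mouse liver, and 1 long noncoding RNA (lncRNA) next to Alb, ncRNA_inter_chr5_4368, was read alongside from a second table of 15555 lncRNAs, which gave 6 members of 39752 entries in all. RNA had been prepared from the livers of untreated, intact CD-1 mice, an outbred stock from Charles River, at 7 to 11 weeks of age. There were 4 groups: total RNA of females, total RNA of males, RNA from isolated nuclei of females and RNA from isolated nuclei of males. Each group held 3 libraries, and each library came from a pool of 12 to 17 mice after partial removal of ribosomal RNA, so that differences between single mice were averaged out. The comparisons were males with females within each kind of RNA, and nuclear with total RNA within each sex.

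Hepatocytes make and secrete all of these proteins. Albumin is the main protein of plasma and binds fatty acids, bilirubin and many hormones and drugs. Afp is its fetal relative, which the liver shuts off after birth, afamin binds vitamin E, Gc carries vitamin D metabolites and free actin, and Ttr carries thyroxine and, together with the retinol-binding protein, retinol. Liver-enriched factors such as the C/EBP proteins, the PAR bZIP factors (Dbp, Tef and Hlf) and the FOXA proteins are known from work on their promoters and enhancers.

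On build mm9, Alb lay on chromosome 5 at 90889915-90905629, Afp at 90919740-90937933 and Afm at 90947975-90982570, all on the plus strand. Gc lay apart on the same chromosome at 89846536-89886923, with 1002991 bases between it and Alb, and Ttr lay on chromosome 18 at 20823751-20832827. The lncRNA ncRNA_inter_chr5_4368 spanned 90847596-90889663 on the minus strand in 2 exons, so it ran away from Alb, with 251 bases between both starts. The map of the region shows 3 further lncRNAs annotated opposite to Afp and Afm.

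**Figure D1:**
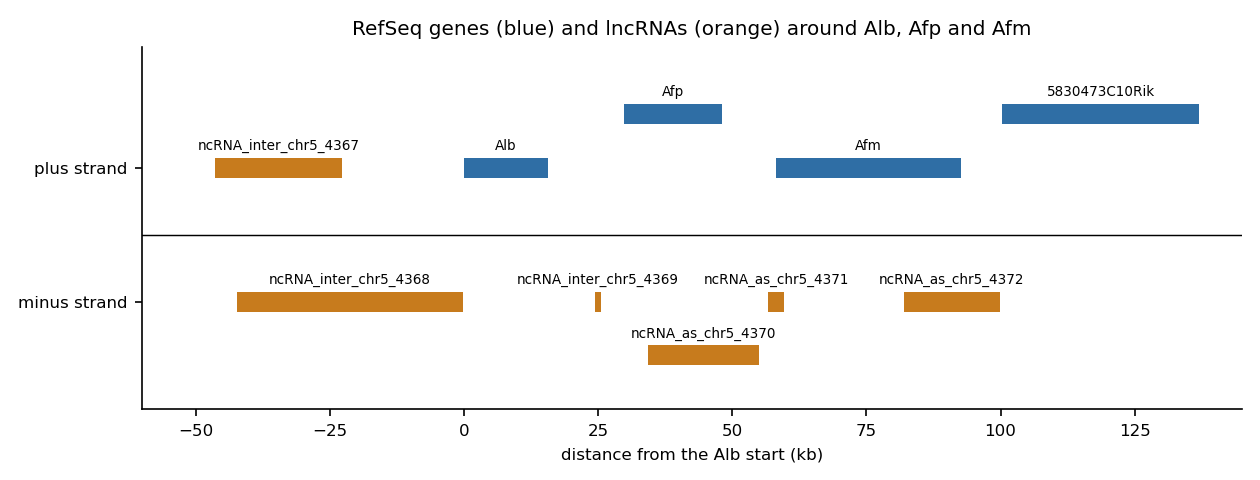
RefSeq genes (blue bars) and lncRNAs (orange bars) around Alb, plotted by distance from the Alb start in kb on the x axis and by strand on the y axis. The lncRNA ncRNA_inter_chr5_4368 starts beside Alb and extends away from it on the minus strand, and ncRNA_as_chr5_4370 covers 13800 bases of Afp on the opposite strand.

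The 250 bases before the annotated start of Alb and Afp, the adult and the fetal albumin, are shown because they hold letters of sites known from liver promoters, which are in capitals. These are TTATGTAA, the PAR bZIP letters (TTACATAA where the match is on the other strand), and TGTTTNC, the FOXA letters (GNAAACA on the other strand). Only these exact letters are marked, and a PAR bZIP site with other letters would stay in lower case. The sequences are RefSeq promoters on build GRCm38.p6, printed 5′ to 3′ along the plus strand, for Alb at chr5:90460620-90460869 and Afp at chr5:90490464-90490713.
Alb: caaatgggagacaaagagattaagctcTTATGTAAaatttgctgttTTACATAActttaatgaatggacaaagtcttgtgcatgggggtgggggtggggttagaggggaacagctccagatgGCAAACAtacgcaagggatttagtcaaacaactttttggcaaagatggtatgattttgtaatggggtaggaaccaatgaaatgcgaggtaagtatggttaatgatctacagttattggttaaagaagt
Afp: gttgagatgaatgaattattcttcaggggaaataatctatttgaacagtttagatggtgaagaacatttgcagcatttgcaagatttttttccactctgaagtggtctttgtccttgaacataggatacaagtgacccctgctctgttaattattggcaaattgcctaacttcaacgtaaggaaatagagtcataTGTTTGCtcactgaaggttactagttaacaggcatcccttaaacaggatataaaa
Windows of 300 bases, 250 before and 50 after the annotated start, were searched on both strands for Alb, Afp, Afm, Gc and all 32851 annotated promoters, with positions counted from the start. The Alb window alone of these held TTATGTAA, which is known to bind PAR bZIP and C/EBP proteins, once on each strand at -223 and -204, against 0.938% of all promoters. The FOXA letters TGTTTNC were in the windows of Alb at -128, on the other strand, and Afp at -55, against 20.5% of all promoters. Neither CAAAGTCCA, an HNF4 form, nor TTGCNCAA, a C/EBP form, was found in any of these windows, against 0.475% and 2.94% of all promoters. A match of letters is a description and was not set against the expression values.

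Levels are given in FPKM (fragments per kilobase, scaled to sequencing depth) for the RefSeq genes and in RPKM (the same for reads) for lncRNAs. The authors deposited the mean of each group, together with a male over female comparison scaled between libraries, and a gene was called when the adjusted p of that comparison was under 0.05. Every mean is a sum of 3 whole read numbers divided by library totals. The reads of each library could therefore be recovered from the deposited means for all members except Alb. For Alb the male nuclear libraries gave a single solution and the female nuclear libraries 9, and its total libraries were not searched. The recovered totals were 11261281 to 24374133 reads a library for RefSeq genes and 6431252 to 13753133 for lncRNAs. In total RNA 1 female library, the middle one by size, held 2.16 times the typical RefSeq level, the other female libraries 1.06 and 0.589 times and the male libraries 0.683 to 1.06 times, so per-library levels of RefSeq genes are scaled by these factors within each kind of RNA. Levels of lncRNAs are scaled by factors of their own, from 115 lncRNAs, which were 1.03, 2.42 and 0.601 in the female and 0.757 to 0.948 in the male total libraries. Which pool each library was is not known, and libraries are named by size. The labels place all 3 male total libraries in lane 3, all nuclear libraries in lane 4, and 1 female total library in lane 3 and 2 in lane 4. Lane thus moved in part with sex in total RNA, and in males lane and nuclear against total RNA cannot be told apart. Values within a lane could not be given, because the recovered libraries carry no lane, and the part of lane in the sex differences of total RNA was not tested. In bulk RNA, fewer cells of a type and less RNA per cell cannot be told apart either. All 8 hepatocyte markers, among them Cps1 and Apob, were above 1 FPKM in every group.

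Alb was the most abundant protein-coding messenger of the family in every group. In total RNA the authors' means were 5481 FPKM in females and 2711 FPKM in males, the third highest level of all RefSeq genes in both sexes, below the ribosomal precursor Rn45s and Lars2. In nuclear RNA the means were 238 FPKM in females and 189 FPKM in males, the fifth highest level. The scaled levels in the male nuclear libraries were 219, 180 and 191 FPKM, which is 197 ± 19.9 FPKM (SD, n = 3).

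Alb was higher in female total RNA. The authors' deposited table gave a log2 of males over females of -0.61, a 1.52-fold higher level in females, with an adjusted p of 1.1e-05. In nuclear RNA the same table gave -0.21 with an adjusted p of 0.36, which was not called. Among all RefSeq genes above 0 in a group, 4.46% were called in total RNA (731 of 16404), 2.36% as higher in females and 2.1% in males. In nuclear RNA 5.8% were called (1013 of 17467), 2.98% as higher in females and 2.82% in males. The unscaled means differ more, with a log2 quotient of -1.02 in total RNA, where the median RefSeq gene of at least 1 FPKM lay at -0.48. Per-library levels of Alb were not searched for in total RNA, so the spread behind its call rests on the authors' table alone.

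Afm followed the same direction in total RNA. The scaled levels were 27.1, 23.2 and 24.7 FPKM in the female libraries and 17.6, 17.4 and 18.8 FPKM in the male libraries, so every female library lay above every male library. The means were 25.0 ± 1.96 FPKM in females and 17.9 ± 0.803 FPKM in males (SD, n = 3 each). The authors' deposited table gave a log2 of -0.47 and an adjusted p of 0.00053. A refit of the recovered reads with limma voom, chosen after seeing the data, gave -0.48 ± 0.09 (SE) and a Benjamini-Hochberg adjusted p of 0.0011, where 7.06% of 8416 genes were called. Without the female library that stands apart, the refit gave -0.56 with an adjusted p of 0.00054 by limma.

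In nuclear RNA the scaled Afm levels were 20.8, 25.1 and 19.1 FPKM in females and 19.8, 17.5 and 20.6 FPKM in males. The groups overlapped, and the authors' deposited table gave a log2 of -0.15 with an adjusted p of 0.97. Whether the sex difference of Afm itself differed between total and nuclear RNA was tested as an interaction in limma, which gave -0.31 ± 0.13 (SE) with an adjusted p of 0.39 (Benjamini-Hochberg). The difference between both kinds of RNA did not pass, and 0.523% of all genes did.

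Gc and Ttr, both among the 17 highest RefSeq genes of total RNA, did not differ between the sexes beyond their spread. Gc had scaled levels of 373, 347 and 386 FPKM in female and 352, 359 and 352 FPKM in male total libraries. The male values lay inside the female range, and the authors' deposited table gave a log2 of -0.04 with an adjusted p of 1.0. The limma refit gave -0.06 ± 0.05 (SE), with an adjusted p of 0.62. The female total reads of Gc and Ttr had 23 and 6 solutions, of which the one nearest the deposited ratio was taken, so their scaled levels are not independent of that ratio.

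Ttr had 313, 298 and 345 FPKM in female and 320, 331 and 323 FPKM in male total libraries, again with the male values inside the female range. The authors' deposited table gave a log2 of 0.05 with an adjusted p of 1.0. In nuclear RNA the Ttr levels were 32.7, 28.3 and 21.9 FPKM in females and 35.0, 32.1 and 32.5 FPKM in males. The largest female library overlapped the males, and the middle and smallest ones, at 28.3 and 21.9 FPKM, lay below them all. The authors' deposited table gave 0.28 with an adjusted p of 0.34, and the limma refit gave 0.28 ± 0.10 (SE) with an adjusted p of 0.11, where 8.42% of genes were called. It passed without the largest female nuclear library, where the limma value was 0.41 with an adjusted p of 0.020, and fell to 0.13 with an adjusted p of 0.51 without the smallest. Nuclear Gc lay between 39.3 and 43.1 FPKM in all 6 libraries, with a log2 of -0.01 and an adjusted p of 1.0 in the authors' deposited table.

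**Figure D2:**
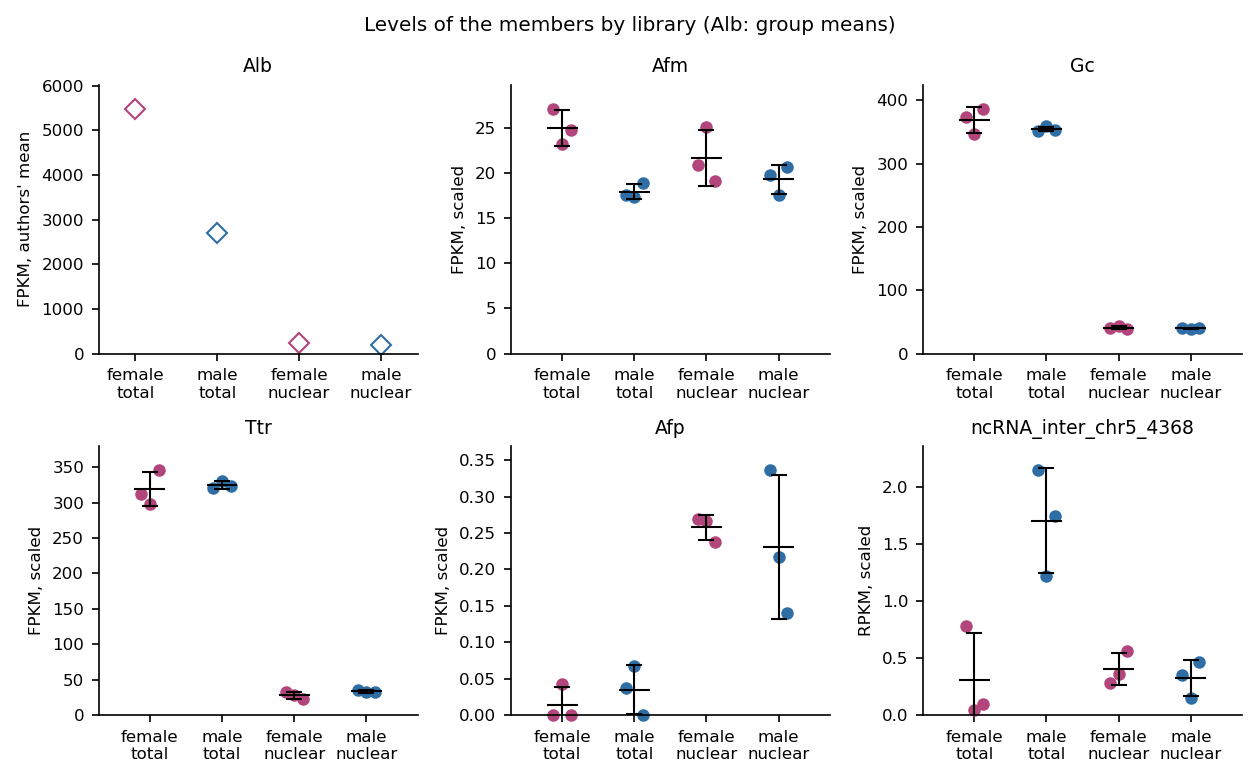
Level of each member (y axis, FPKM, or RPKM for the lncRNA, scaled between libraries within each kind of RNA) in the 4 groups (x axis). Points are libraries, lines and bars the mean ± SD (n = 3), and the diamonds for Alb the authors' unscaled group means. In total RNA the scaled values of Gc and Ttr overlap between the sexes, and those of Afm and the lncRNA do not. The share of all features without such overlap was not counted.

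Afp was close to the limit of detection. It had 0, 4 and 0 reads in the female and 2, 3 and 0 reads in the male total libraries, which is 4 against 5 reads in all. In nuclear RNA it had 13, 13 and 11 reads in females and 14, 10 and 6 reads in males, so every nuclear library held more Afp reads than every total library. The authors' deposited table gave log2 values between the sexes of 0.85 in total and -0.15 in nuclear RNA, both with an adjusted p of 1.0. No sex difference of Afp was detected at these read numbers.

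The lncRNA ncRNA_inter_chr5_4368 had the opposite direction to its neighbour Alb in total RNA. It had 18, 2 and 1 reads in the female and 46, 22 and 14 reads in the male total libraries. The scaled levels were 0.782, 0.0442 and 0.0987 RPKM in females and 2.14, 1.22 and 1.74 RPKM in males. The authors' deposited table gave a log2 of 2.38, a 5.21-fold higher level in males, with a false discovery rate of 0.0052, where 1.35% of 10706 lncRNAs above 0 were called, 0.654% as higher in males and 0.701% in females. The limma refit gave 3.50 ± 0.66 (SE) with an adjusted p of 0.013, where 1.45% of 2133 lncRNAs were called. That call rests on few reads: without the middle female library limma gave 1.95 with an adjusted p of 0.25, and without the largest male library 3.23 with an adjusted p of 0.061.

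In nuclear RNA the same lncRNA had 6, 8 and 12 reads in females and 6, 3 and 8 reads in males. The groups overlapped, and the authors' deposited table gave a log2 of -0.48 with a false discovery rate of 1.0, where 4.88% of 13118 lncRNAs were called, 2.3% as higher in males and 2.58% in females. The limma interaction of sex and kind of RNA was 3.88 ± 0.98 (SE), with an adjusted p of 0.20 (Benjamini-Hochberg), where 0.0938% of lncRNAs passed. It did not pass with the filter on low reads, and without that filter its adjusted p was 0.034 by limma. Without the middle female total library the interaction was 2.34 with a limma adjusted p of 0.59. Between Alb and the lncRNA the sex differences in total RNA were thus of opposite sign, and no test of one against the other was made.

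**Figure D3:**
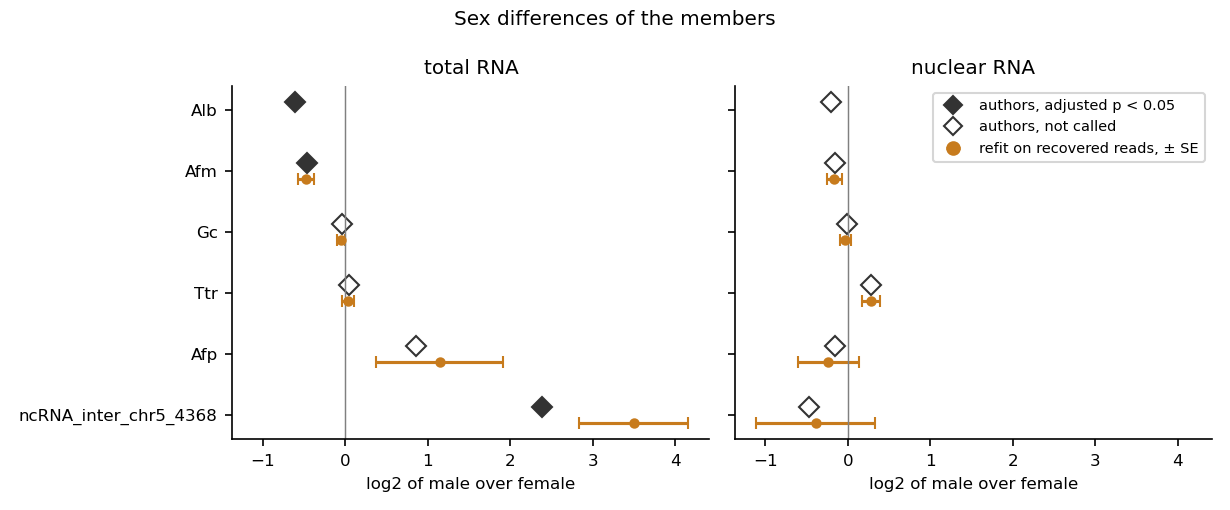
Log2 of males over females (x axis) for each member (y axis) in total and nuclear RNA. Diamonds are the authors' values, filled where the adjusted p was under 0.05, and orange points the limma refit on recovered reads ± SE, which could not be made for Alb. Alb, Afm and the lncRNA were called in total RNA, and no member was called in nuclear RNA.

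Relative to total RNA, the nuclei held low levels of Alb, Gc and Ttr messenger. The authors' mean FPKM gave nuclear over total RNA, taken as log2((nuclear + 1)/(total + 1)) less the median of 7306 genes of at least 1 FPKM in a group. Alb lay at -4.21 in females and -3.76 in males, with 0.0137% and 0.0684% of genes lower. Ttr lay at -3.43 and -3.11, and Gc at -3.10 and -2.98, with 0.301% and 0.370% of genes below Ttr and 0.589% and 0.547% below Gc. The limma contrast on recovered reads gave -3.29 ± 0.09 (SE) and -3.04 ± 0.09 for Ttr and -2.93 ± 0.06 and -2.90 ± 0.06 for Gc, in females and males. All of these passed with adjusted p-values of at most 2.2e-18, in a comparison where 70.4% of genes were called in females and 66.7% in males. Against genes of at least 10 FPKM the values were -2.70 and -2.39 for Alb, -1.92 and -1.74 for Ttr and -1.59 and -1.61 for Gc.

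Afm had levels in nuclei close to those in total RNA. It lay at -0.15 in females and 0.25 in males, and the limma contrast gave 0.05 ± 0.09 (SE; adjusted p = 0.62) and 0.36 ± 0.10 (SE; adjusted p = 0.0022). The sign depends on the centring: against genes of at least 10 FPKM, whose median lay at -1.81 in females and -1.45 in males in place of -0.30 and -0.08, Afm was at 1.36 in females and 1.62 in males. Afm ranked 244 and 350 among RefSeq genes in female and male total RNA and 124 and 150 in nuclear RNA, while Gc went from 9 and 16 to 57 and 61 and Ttr from 14 and 17 to 98 and 80. The ratio of Alb to Afm was 176 and 165 in total RNA and 10.6 and 10.2 in nuclear RNA, and that of Gc to Ttr was 1.16 and 1.09 in total and 1.48 and 1.20 in nuclear RNA, from the group means of females and males.

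**Figure D4:**
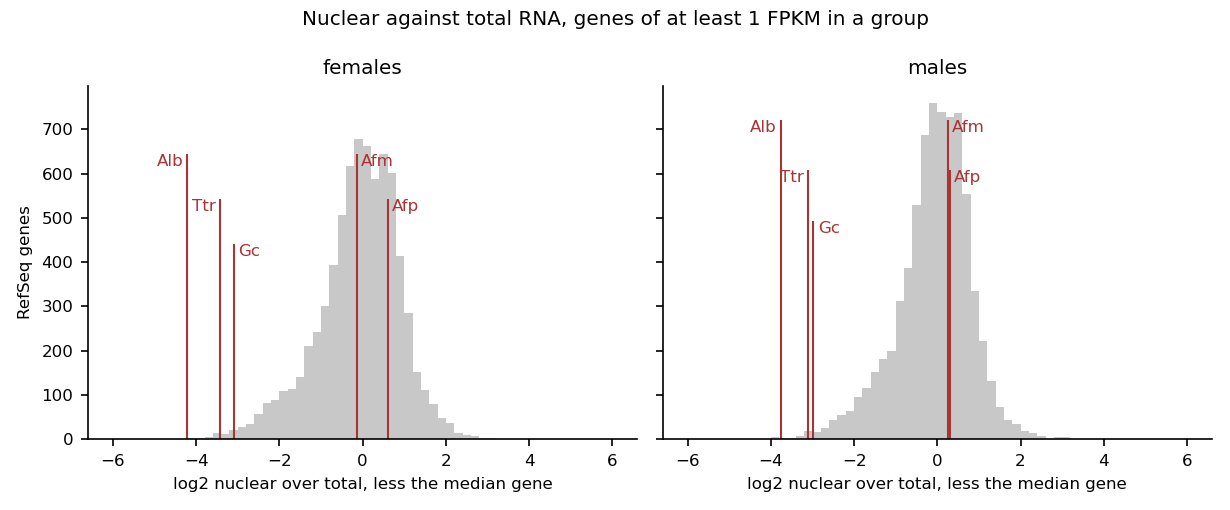
Distribution of log2 nuclear over total RNA, less the median gene (x axis), over 7306 RefSeq genes (y axis, number of genes per bin), in females and males. Red lines mark the members: Alb, Ttr and Gc lie at the lower end, and Afm and Afp in the body of the distribution, where the place of Afp depends on the pseudocount of 1.

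Afp was listed at 0.0303 and 0.0362 FPKM in total and 0.267 and 0.218 FPKM in nuclear RNA of females and males. On the log2 scale with the median removed it lay at 0.60 and 0.31 with a pseudocount of 1 and at 1.97 and 1.36 with one of 0.1. It was higher in nuclear than in total RNA, by 3.84 ± 0.61 (SE; adjusted p = 5.8e-06) in females and 2.46 ± 0.60 (SE; adjusted p = 0.00091) in males by limma. In these contrasts 70.4% of genes were called in females and 66.7% in males. With 4 and 5 reads in total RNA, Afp passed the filter of a mean of 5 reads per library only through its nuclear libraries. These p-values are thus not independent of the filter, and no conclusion is drawn from them. The lncRNA ncRNA_as_chr5_4370, annotated on the other strand across 13800 bases of Afp, had 1075 and 759 reads in the female and male nuclear libraries, which is 53.5 and 37.8 reads per kilobase. Afp itself had 37 and 30 reads, which is 17.7 and 14.4 per kilobase. No source used here says whether RefSeq counting kept the strand, so Afp reads and reads of that lncRNA cannot be told apart. The lncRNA was not called between the sexes in either kind of RNA.

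Afm and Ttr also have annotated partners on the opposite strand. For Afm, ncRNA_as_chr5_4371 had at most 13 reads in a group and ncRNA_as_chr5_4372 had 38 and 35 reads in total and 806 and 690 reads in nuclear RNA of females and males, against 4046, 1957, 3018 and 2441 reads of Afm. For Ttr, ncRNA_as_chr18_14332 had 396 reads in female total RNA against 30670 of Ttr, which is 1.29% as many. In nuclear RNA it had 1662 and 2057 reads against 2326 and 2539 of Ttr, which per kilobase is 200 and 247 against 1905 and 2079. In the smallest male total library it stood at 7.86 RPKM, against 1.44 and 0.330 in the other male libraries. Transcripts of Alb, Afp, Afm and Gc shared no run longer than 13 identical bases in the reference.

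Of 22 plasma carriers and binding proteins listed, 21 were matched by symbol, and these did not share one direction. Transferrin, which the RefSeq genes hold as Trf, was not matched and is left out of these counts. Its authors' means were 1185 FPKM in female and 890 FPKM in male total RNA. In total RNA 5 were higher in males and 3 in females, where 2.1% and 2.36% of all RefSeq genes were called, with a median log2 of 0.22 for those of at least 1 FPKM, against 0.00 for all such genes. Haptoglobin (Hp), which binds free haemoglobin, was higher in males by a log2 of 0.90 (adjusted p = 0.00018), hemopexin (Hpx), which binds haem, by 0.62 (adjusted p = 0.0060), and Apoa1 of high-density lipoprotein by 0.53 (adjusted p = 3.1e-06), in the authors' deposited table. The thyroxine carrier Serpina7, which shares its hormone with Ttr, was higher in males by 1.54 (adjusted p = 2.4e-08), at 0.627 FPKM in females and 1.26 in males. The corticosteroid carrier Serpina6 was higher in females, at -1.09 (adjusted p = 3.5e-17), as was A1bg, at -7.28 (adjusted p = 3.2e-54), and Orm3, at -2.21 (adjusted p = 0.00038), in the authors' deposited table. Orm1 was higher in males, at 0.67, though Orm genes are near-identical copies and their reads may be split. Of those called in neither kind of RNA, Orm2 was highest in total RNA, at 0.79, and Apoa2 lowest, at -0.23.

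In nuclear RNA 8 of the 21 were higher in females and 3 in males, where 2.98% and 2.82% of all RefSeq genes were called, with a median of -0.27 against -0.01 for all genes of at least 1 FPKM. Hpx and Orm1, male-higher in total RNA, were female-higher in nuclei, at -0.54 (adjusted p = 0.0024) and -0.74 (adjusted p = 9.3e-09) in the authors' deposited table. Itih4, at -1.01 (adjusted p = 1.5e-15), Ahsg, at -0.47 (adjusted p = 0.00068), Cp, at -0.44 (adjusted p = 0.0063), and Ambp, at -0.44 (adjusted p = 0.033), were also higher in females. Rbp4, the retinol carrier that travels with Ttr, was higher in males, at 0.40 (adjusted p = 0.011), with Apoa1 at 0.58 and Azgp1 at 0.24 (adjusted p = 0.049), in the authors' deposited table. Orm3 stood at -2.65 and A1bg at -7.96.

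**Figure D5:**
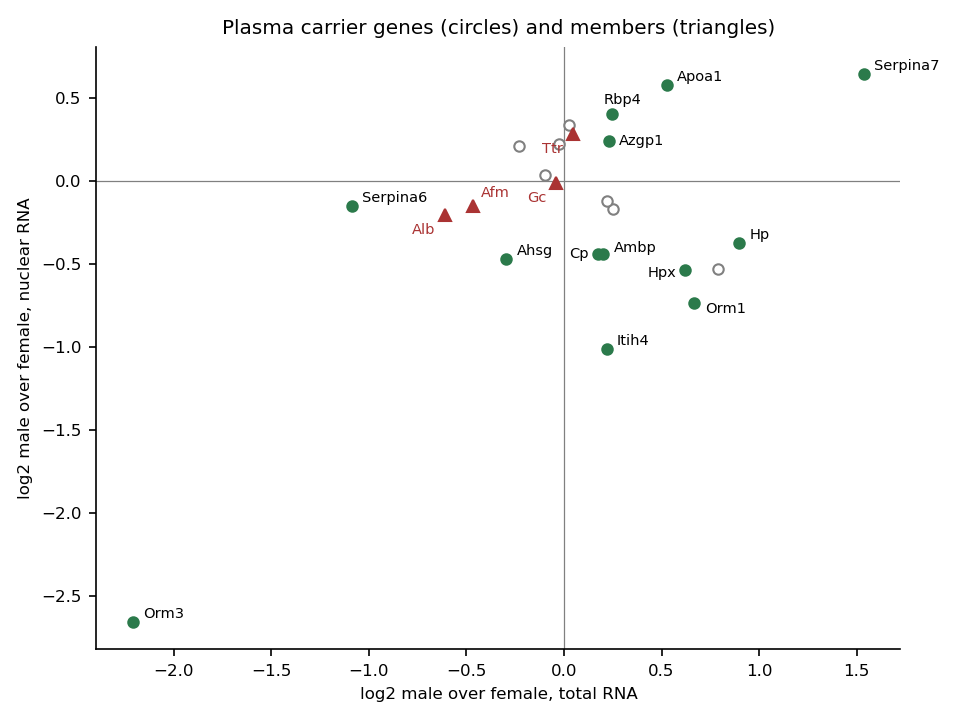
Log2 of males over females in total RNA (x axis) and nuclear RNA (y axis), from the authors' comparison, for plasma carriers of at least 1 FPKM in a group (circles, filled where called in either RNA) and for Alb, Afm, Gc and Ttr (triangles). A1bg, at -7.28 and -7.96, is left out of the plot, and Hp, Hpx and Orm1 lie at the lower right.

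Among 20 transport partners, receptors and enzymes that handle the members' ligands, 2 were higher in males and 2 in females in total RNA, against 2.1% and 2.36% of all RefSeq genes. In nuclear RNA 4 were higher in males and 2 in females, against 2.82% and 2.98%. Stra6l, a receptor for the retinol-binding protein, was higher in females in both, at -0.51 (adjusted p = 9.9e-05) and -0.51 (adjusted p = 0.00064) in the authors' deposited table. Ugt1a1, which conjugates the bilirubin that albumin carries, was higher in females in total RNA, at -1.07 (adjusted p = 1.7e-15), though Ugt1a genes share exons. Fabp1, the fatty acid carrier inside the hepatocyte, was higher in males in both, at 0.54 (adjusted p = 0.014) and 0.86 (adjusted p = 1.4e-09) in the authors' deposited table. In nuclear RNA the desaturase Scd1, at 1.01 (adjusted p = 1.1e-09), and the thyroid hormone responsive gene Thrsp, at 0.76 (adjusted p = 0.0029), were higher in males, and Lrp1, at -0.40 (adjusted p = 0.0021), in females. Of those not called, Cubn was highest, at 0.00261 FPKM in male and listed at 0 in female total RNA, and Gsn lowest, at a log2 of -0.62.

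Of 21 regulators known from these genes, 3 were higher in males and none in females in total RNA by the authors' adjusted p, against 2.1% and 2.36% of all RefSeq genes, with a median of 0.08. The PAR bZIP factor Dbp was at 1.03 (adjusted p = 0.00057) in the authors' deposited table. Its levels in total RNA were 1.51 FPKM in females and 2.17 FPKM in males. Foxa1 was at 0.65 (adjusted p = 0.028) and Zbtb20, a known repressor of Afp after birth, at 0.41 (adjusted p = 0.025). In nuclear RNA Dbp, at 1.82 (adjusted p = 1.6e-07), Tef, at 0.69 (adjusted p = 0.0084), and Nr2f2, at 0.48 (adjusted p = 0.040), were higher in males and Hnf4a, at -0.44 (adjusted p = 6.1e-06), in females, in the authors' deposited table. Over all RefSeq genes in nuclear RNA, 2.82% were called as higher in males and 2.98% in females. The third PAR bZIP factor, Hlf, was called in neither kind of RNA, at 0.14 in total and 0.42 in nuclear RNA. Of those not called, Cebpd was lowest in total RNA, at -0.54.

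Genes that, like Afp, fall in liver after birth were mostly low. Of 14 listed, Dlk1, Lin28b and Spink3 were listed at 0 in every group, the glypican Gpc3 had at most 0.115 FPKM, and the imprinted gene Peg3 reached 3.15 FPKM in female nuclear RNA. Of the 11 above 0, Cyp3a16 was the 1 gene called, against 4.46% of all RefSeq genes in total and 5.8% in nuclear RNA. It stood at -8.32 in total (adjusted p = 1.0e-121) and -6.74 in nuclear RNA (adjusted p = 1.1e-83) in the authors' deposited table. Its level in total RNA was 13.5 FPKM in females and 0.0343 in males, and it belongs to a family of close copies. Of those not called, Igf2bp1 was highest, at 0.00191 FPKM in male and listed at 0 in female total RNA, and Epcam lowest, at a log2 of -1.73 on a level of at most 0.0478 FPKM.

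Around Alb, Afp and Afm, 14 RefSeq genes and 11 lncRNAs other than the member lncRNA were listed within 500 kb. Of these, 10 genes and 10 lncRNAs were above 0 in total RNA and 11 and 11 in nuclear RNA. None was called by the authors' adjusted p in either kind of RNA. Over all entries above 0, 4.46% of RefSeq genes and 1.35% of lncRNAs were called in total RNA, and 5.8% and 4.88% in nuclear RNA. At these shares, the lack of a call among so few entries does not set the region apart. The lncRNAs opposite to Afp and Afm overlap them, and the nearest RefSeq gene was 5830473C10Rik, the albumin superfamily gene also named Albfm1, 7665 bases beyond Afm, at 5.01 and 3.26 FPKM in total and 10.6 and 12.0 in nuclear RNA of females and males. Near Gc, the bicarbonate transporter gene Slc4a4 was higher in females in total, at -0.44 (adjusted p = 0.0037), and nuclear RNA, at -0.85 (adjusted p = 4.7e-07), in the authors' deposited table. In nuclear RNA 3 of 15 lncRNAs above 0 near Gc were called, against 4.88% of all lncRNAs, ncRNA_inter_chr5_4351 and ncRNA_inter_chr5_4352 higher in males and ncRNA_inter_chr5_4365 in females. Near Ttr, the desmosomal gene Dsg1c was higher in males in total, at 0.83 (adjusted p = 0.031), and in nuclear RNA, at 1.48 (adjusted p = 0.00043), in the authors' deposited table. In nuclear RNA 3 of 21 lncRNAs above 0 near Ttr were called, all as higher in males, against 4.88% of all lncRNAs. Just before Ttr lay ncRNA_inter_chr18_14330, at 1.82, and ncRNA_inter_chr18_14328, at 1.19. Far beyond Ttr, by 444554 bases, lay ncRNA_inter_chr18_14341, at 1.43. All 3 had a false discovery rate of at most 0.00024. The intergenic lncRNA nearest before Ttr, ncRNA_inter_chr18_14331, 302 bases away, was at 1.36 and was not called (false discovery rate 0.95).

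Over the 4 group means, the profile most like that of Alb among 971 genes of at least 10 FPKM was that of Apoa2, at a Euclidean distance of 0.511 on log2(FPKM + 1) after centring, followed by Apoe, Hsd11b1, Gpx1 and Tpt1. For Afm the nearest were Dpyd, at 0.117, Cyp2c68, Slc29a1, Pbld1 and Srebf1. For Gc they included Ifitm3, at 0.0600, Actb, Prdx1 and Chchd2, and for Ttr Ndufa4, at 0.0722, Apoh, Eef1a1, Rplp1 and Apoc1. None are named for Afp, whose level is so low that the pseudocount sets its profile. These distances describe 4 points that come from the same libraries.

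Markers of other cells moved in part with sex in total RNA, where 2.36% of all RefSeq genes were called as higher in females and 2.1% in males. Of 8 Kupffer cell markers 3 were higher in females (Clec4f, Marco and Csf1r). All 8 summed to 26.6 FPKM in female and 12.4 FPKM in male total RNA, and to 6.80 and 6.62 FPKM in nuclear RNA. None of the 8 was called in nuclear RNA, where 5.8% of all RefSeq genes were. At that share, the lack of a call among 8 markers does not set them apart. Of 8 hepatocyte markers 3 were higher in females (Cps1, Hpd and Ass1) and 2 in males (Apoa1 and Apob) in total RNA. None of 7 sinusoidal endothelial and 6 lymphocyte markers was called by the authors' adjusted p. In total RNA Reln of 7 stellate markers was called as higher in females. Spp1 of 6 cholangiocyte and Alas2 of 5 erythroid markers were called as higher in males. Of 6 pancreas and gut markers listed, the authors' deposited table gave Fabp2 as higher in males in total RNA, at 0.61 (adjusted p = 0.021), and Prss1 was listed at 0 in every group. These sums are unscaled, and the median RefSeq gene of at least 1 FPKM had an unscaled log2 quotient of -0.48 in total RNA. In the authors' scaled comparison the median log2 of the 8 Kupffer cell markers was -0.51 in total RNA. The part of these markers in the differences of Alb and Afm was not tested.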

How the data were processed

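RNA of mouse liver was sequenced after partial depletion of ribosomal RNA, with a library kit that keeps strand, per the labels' protocols. The submitters' processing notes name TopHat2, featureCounts, edgeR and build mm9, with versions not given in the sources used here. For RefSeq genes the authors deposited mean FPKM per group, an adjusted p-value, a fold-change score with a sign and the ratio of males over females, per the file headers. For lncRNAs they deposited mean RPKM, and from edgeR a log2 fold change with its p-value and false discovery rate, per the file headers. Among lncRNAs, 3 entries with values in another order were left out.

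The log2 of the deposited ratio was used for RefSeq genes. RefSeq starts count from 0 in the table and are printed from 1. Whole reads per library were searched that give each deposited mean within its rounding, with library totals from features of 1 read and lengths from the table's coordinates and GENCODE vM21. A single solution was found for 13012 of 14580 RefSeq genes and 10689 of 10691 lncRNAs tried. For female total RNA, Gc had 23 and Ttr 6 solutions, and the one nearest the deposited ratio was taken. The exception to the planned use of means was made after seeing the data: recovered reads with a mean of at least 5 per library were fitted with limma 3.58.1 (voom, R 4.3.3) over all 4 groups, with p-values adjusted by the Benjamini-Hochberg method over each table. The scripts were tested on simulated data. Python 3.11.15 was used with pandas 2.3.3 and matplotlib 3.10.9.

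The members and lists were chosen with earlier results of these data known. Named were all members, every list gene called in either RNA and the highest and lowest of the others in total RNA, called neighbours within 500 kb and the nearest ones, and the 5 genes most alike in profile (not for Afp, left out after its values were seen). Pools of mice give p-values that measure the spread between pools. Protein sequences were not used here. Some named genes and promoter motifs are not reported here.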

Additional observations from a re-analysis of the deposited data

How the results depend on the processing

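The calls of Afm and the lncRNA in total RNA kept their direction in every setting run. For Alb the settings were only the deposited value under other thresholds and quotients of the deposited means. Its direction was the same in these, but they cannot test it on separate libraries. Both protein genes miss a minimum of 2-fold, at -0.61 for Alb and -0.47 for Afm. Scaled to the library total only, the limma value of Afm was -0.76 with an adjusted p of 0.95. Ttr in total RNA changed sign from 0.05 to -0.39 as an unscaled quotient of means and to -0.26 in limma without scaling; the cause was not tested. When each library was left out in turn, limma gave -0.56 to -0.41 for Afm, -0.016 to 0.090 for Ttr and 1.95 to 4.46 for the lncRNA in total RNA. In nuclear RNA it gave -0.52 to 0.054 for Afp, -0.053 to 0.013 for Gc, 0.13 to 0.41 for Ttr and -0.70 to 0.070 for the lncRNA. For Gc the difference between total and nuclear RNA ran from -0.069 to 0.0084, and for the lncRNA from 2.34 to 4.85. Alb could not be refitted, so no library was left out for it. With the threshold at 0.01, the regulators called in total RNA went from 3 to 1. With a window of 1000 kb, RefSeq calls near Gc went from 1 to 2 in either RNA and near Ttr from 1 to 2 in nuclear RNA, and lncRNA calls near Alb, Afp and Afm in nuclear RNA from 0 to 1. The lncRNAs near Gc called as higher in males in nuclear RNA went from 2 of 15 to 3 of 28 with 1000 kb. With 250 kb, RefSeq calls near Ttr went from 1 to 0 in either RNA, and its nuclear lncRNA calls from 3 of 21 to 2 of 12. No paired analysis was possible because the recovered libraries carry no pool number. Depth limits Afp and the lncRNA, which had at most 14 and 46 reads in a library.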
